A study of Mus musculus with 3 samples.

Results

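The interferon-stimulated genes described here are 39 genes that cells switch on when interferon is sensed, chosen by symbol from the gene rows of 3 single-cell libraries of mouse cortical cultures (C57BL/6). Of the 39, 38 had a row in all 3 libraries, out of 31053 genes in all, and Mx2 was not analysed here. All counts below are of these 38 members. The members were chosen with earlier results of these data known.

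The first library held MIM-treated astrocytes, whose differentiation medium with 10% serum had been replaced by MIM, which lacks serum and holds 20 ng/mL FGF2 and some or all of cysteine, glycine, methionine, putrescine, threonine and S-adenosylmethionine; they were collected by day 5. The second held untreated astrocytes kept in the serum medium, and the third held neural stem cells grown as neurospheres with EGF and FGF2 and no serum. For this MIM library the labels give neither the metabolites nor the day. They put every sample at E14.5, while the protocol describes 2 sources of astrocytes, postnatal (P4) cortex and neurospheres, and the source used here is not given. Serum, FGF2, base medium and metabolites changed together between the treated and untreated astrocytes, so their parts cannot be told apart. Cells of all 3 cultures had been fixed in methanol before loading.

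Interferons are secreted cytokines that bind receptors on the cell surface. The receptors act through JAK kinases on transcription factors, and STAT2 and IRF9 are part of a complex, ISGF3, that binds a DNA element called the ISRE in the promoters of antiviral genes. Interferon gamma acts mainly through another element, GAS. Astrocytes respond to interferon in culture and in infected or injured brain, and some stem cells are known to hold part of this gene set at a raised resting level. The products block viral entry, translation or replication, sense viral nucleic acid, or feed back on the pathway.

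Each group was 1 library, so no difference has a replicate check and no test between conditions was made. Intervals are 95% and cover counting error only. After filtering, the MIM-treated library held 14964 cells and 50906724 UMIs (unique molecular identifiers, each counting 1 captured RNA molecule), the untreated astrocytes 9818 cells and 50594420 UMIs, and the neural stem cells 9145 cells and 14689259 UMIs. The median cell held 3156, 5089 and 1379 UMIs in that order, and Malat1, a nuclear RNA, took 9.44%, 13.7% and 26.9% of UMIs. Any pair of libraries shared 25 to 43 cell barcodes. Gfap or Aqp4, which mark astrocytes, had a UMI in 1197 MIM-treated cells (7.999%), 85.4% of untreated astrocytes and 1.97% of neural stem cells, and division genes in 56.8%, 5.73% and 16.3%. Astrocyte markers did not all move this way: of 12 checked, 5 were lower, 1 higher and 6 neither in MIM-treated over untreated astrocytes, at 2-fold. A UMI of any of the 12 was found in 13116 MIM-treated cells, 9788 untreated astrocytes and 6702 neural stem cells. Levels are CPM, counts of a gene scaled to a common library total, so that all genes of a library sum to 1e6.

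Many promoters of the members hold the sequence these factors are known for, and 6 that hold it are shown. Isg15, Ifit1 and Ifit3 led the cells richest in member UMIs. Rsad2 was the member nearest to its untreated level after MIM. Ifitm2 and Ifitm3 were the members with most UMIs in MIM-treated astrocytes. Sequences are from RefSeq on GRCm38.p6, written 5′ to 3′ on the strand of the gene, from 250 bases before the start site to 50 after it. Capitals mark every match to an ISRE core, GAAANNGAAA on one strand or TTTCNNTTTC on the other, where N is any base.

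Isg15 (chr4:156200769-156201068, minus strand): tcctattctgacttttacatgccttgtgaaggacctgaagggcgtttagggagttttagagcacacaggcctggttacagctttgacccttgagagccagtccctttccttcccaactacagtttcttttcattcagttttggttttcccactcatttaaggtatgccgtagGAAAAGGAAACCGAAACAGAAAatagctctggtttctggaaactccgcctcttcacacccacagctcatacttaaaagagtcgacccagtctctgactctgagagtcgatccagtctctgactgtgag
Ifit1 (chr19:34640639-34640938, plus strand): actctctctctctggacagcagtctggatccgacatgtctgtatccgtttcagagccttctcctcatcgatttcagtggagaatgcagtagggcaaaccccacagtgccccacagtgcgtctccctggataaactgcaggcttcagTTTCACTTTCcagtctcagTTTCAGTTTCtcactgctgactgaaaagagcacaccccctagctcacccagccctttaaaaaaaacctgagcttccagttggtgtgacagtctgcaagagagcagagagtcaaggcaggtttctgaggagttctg
Ifit3 (chr19:34583279-34583578, plus strand): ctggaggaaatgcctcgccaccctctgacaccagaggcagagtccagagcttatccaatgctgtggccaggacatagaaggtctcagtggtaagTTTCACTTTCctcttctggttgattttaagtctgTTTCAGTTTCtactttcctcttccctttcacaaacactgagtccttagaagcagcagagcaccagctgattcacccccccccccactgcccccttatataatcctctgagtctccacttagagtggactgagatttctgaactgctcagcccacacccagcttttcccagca
Rsad2 (chr12:26456403-26456702, minus strand): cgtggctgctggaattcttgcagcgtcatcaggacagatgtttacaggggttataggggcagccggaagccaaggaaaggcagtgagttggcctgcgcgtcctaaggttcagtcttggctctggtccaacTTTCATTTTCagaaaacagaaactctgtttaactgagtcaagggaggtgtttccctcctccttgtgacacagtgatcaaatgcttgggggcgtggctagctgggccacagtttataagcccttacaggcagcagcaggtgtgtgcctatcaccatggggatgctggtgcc
Ifitm2 (chr7:140955912-140956211, minus strand): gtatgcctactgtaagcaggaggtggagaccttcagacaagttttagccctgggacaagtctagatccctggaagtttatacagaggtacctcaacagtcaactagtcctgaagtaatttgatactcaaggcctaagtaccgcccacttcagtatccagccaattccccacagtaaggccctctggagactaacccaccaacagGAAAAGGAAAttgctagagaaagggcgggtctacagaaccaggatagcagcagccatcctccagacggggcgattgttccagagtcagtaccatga
Ifitm3 (chr7:141010695-141010994, minus strand): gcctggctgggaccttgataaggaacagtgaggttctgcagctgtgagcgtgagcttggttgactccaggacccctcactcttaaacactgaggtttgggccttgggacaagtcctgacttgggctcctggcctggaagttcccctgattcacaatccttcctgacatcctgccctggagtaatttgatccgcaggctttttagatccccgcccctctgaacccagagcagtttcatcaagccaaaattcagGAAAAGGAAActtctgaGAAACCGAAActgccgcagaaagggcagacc

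The Isg15 window holds 3 matches that overlap each other and begin 78, 72 and 66 bases before the start site. Ifit1 holds 2, at 104 and 85 bases before it, and Ifit3 holds 2, at 156 and 122. Rsad2 has 1 match, 120 bases before the start, and Ifitm2 has 1, 46 bases before it. Both matches of Ifitm3 lie just after the annotated start. The windows of Irf7, Ifi35, Ifit2, Cmpk2, Irf1, Irf9, Oasl1, Oasl2, Xaf1, Lgals3bp and Ifi44, also named in results below, held no match and are not shown. Of 29 members with a promoter in the table, 18 held an ISRE core (62.1%), against 3.99% of all 27025 genes in the table, counted the same way (any promoter of the gene). By promoter, 19 of the members' 34 held one, against 3.44% of all 32851 promoters of the same length. A core of the GAS element, TTCNNNGAA, which reads the same on both strands, was in 8 of the 29 (27.6%), against 9.55% of all genes. A GAS match can overlap an ISRE match. Matches to a few letters describe these windows and say nothing of which factor binds.

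The summed member level in MIM-treated astrocytes lay below that in untreated astrocytes and above that in neural stem cells, which does not hold for every member. The 38 members summed to 249 CPM in MIM-treated astrocytes (245 to 253), 1339 CPM in untreated astrocytes (1329 to 1349) and 64.5 CPM in neural stem cells (60.5 to 68.8), from 12670, 67755 and 948 UMIs. The MIM-treated level was 18.6% of the untreated one (18.2 to 18.9) and 3.86 times that of neural stem cells (3.61 to 4.12). At least 1 UMI was found for 36 members in MIM-treated astrocytes, 38 in untreated astrocytes and 28 in neural stem cells. Ifitm2, Ifitm3 and Ifi27 supplied 73.6%, 65.9% and 62.6% of the member UMIs in that order, so sums are also given without them. In summed levels fewer cells of a type and less RNA per cell cannot be told apart. The other 35 members summed to 65.8 CPM in MIM-treated astrocytes, 456.7 CPM in untreated astrocytes and 24.2 CPM in neural stem cells.

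**Figure D1:**
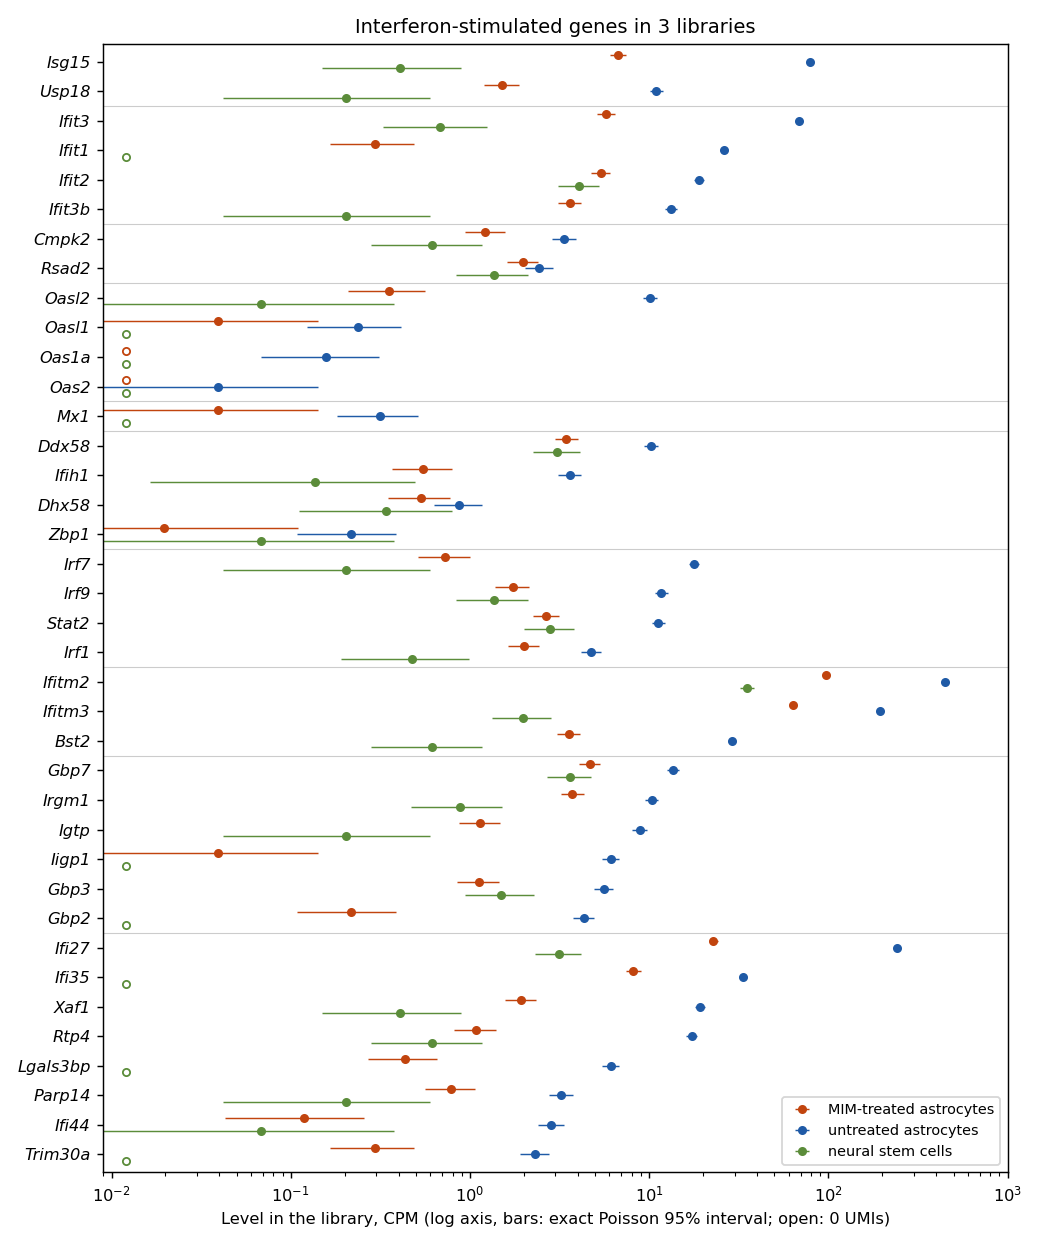
Level of each of the 38 members in MIM-treated astrocytes, untreated astrocytes and neural stem cells, in CPM on a log axis, grouped by role (grey lines), with exact Poisson 95% intervals that are clipped at the left edge. Open circles are libraries with 0 UMIs of the gene. The level in untreated astrocytes lies to the right for every member, and its interval overlaps that of MIM-treated astrocytes for Rsad2, Dhx58, Oas1a, Oas2, Oasl1 and Zbp1.

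A member was called measured in a comparison if its UMIs in the pair of libraries came to 20 or more, and higher or lower at a 2-fold ratio after adding 1 CPM to each level. In MIM-treated over untreated astrocytes 33 members were measured. Of these, 29 were lower, 0 higher and 4 neither, against 15.2% lower and 8.49% higher of all 13876 genes so measured. The median log2 ratio of the members was −1.91, against −0.19 over all measured genes. In untreated astrocytes over neural stem cells, 31 of 33 measured members were higher and 0 lower, against 19.9% higher and 22.6% lower of all measured genes, and the medians were 2.83 and −0.03. In MIM-treated astrocytes over neural stem cells, 12 of 27 measured members were higher and 0 lower, against 9.29% and 20.5% of all measured genes, with medians of 0.57 and −0.24. In MIM-treated over untreated astrocytes, Ifit1, Oasl2, Ifi44, Trim30a, Gbp2 and Iigp1 held 2 to 18 UMIs after MIM and reached 20 only through the untreated astrocytes. Most members measured against neural stem cells held fewer than 20 UMIs there and reached 20 only through the astrocyte library. Most were also under 1 CPM in neural stem cells, and with 1 CPM added such a member cannot be called lower against them. The counts of 0 lower there were thus in large part set by the rule. Against untreated astrocytes, Dhx58 could not be called lower after MIM for the same reason. A member low in both libraries could not be called, so the counts describe the members that could be measured, not all 38. As the members were chosen with earlier results of these data known, the shares of all genes beside them are a description only.

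The background moves with the scaling. Under edgeR TMM factors 11.4% of all measured genes were higher and 11.6% lower in MIM-treated over untreated astrocytes, and 17.1% higher and 11.5% lower in MIM-treated astrocytes over neural stem cells. TMM moved the median of all genes by 0.18 in the first of these comparisons and 0.31 in the second. Leaving Malat1 out of the totals moved the second by −0.26, with 5.89% higher and 30.7% lower.

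Isg15 and Usp18 act on the same tag: Isg15 is a ubiquitin-like protein joined to other proteins during infection, and Usp18 removes it and damps receptor signalling. Isg15 stood at 6.72 CPM in MIM-treated astrocytes (6.02 to 7.47), 79.4 CPM in untreated astrocytes (77.0 to 81.9) and 0.41 CPM in neural stem cells (0.15 to 0.89). It was thus 11.8-fold lower in MIM-treated than in untreated astrocytes (10.6 to 13.2) and 16.4-fold higher than in neural stem cells (7.48 to 45.1), where it rests on 6 UMIs. Usp18 had 1.51, 10.9 and 0.20 CPM in the same order and was 7.24-fold lower after MIM (5.70 to 9.31).

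The Ifit proteins bind RNA that lacks the marks of host messages and block its translation. Ifit3 was at 5.74 CPM in MIM-treated astrocytes, 68.7 CPM in untreated astrocytes and 0.68 CPM in neural stem cells. Ifit1 had 15, 1324 and 0 UMIs, which is 0.29 CPM in MIM-treated and 26.2 CPM in untreated astrocytes, an 88.8-fold lower level (53.6 to 159). Ifit1 and Iigp1 were thus the measured members that kept least of their untreated level, at 1.13% and 0.64%. Ifit2 kept more of its untreated level than Ifit1 and Ifit3, with 5.38 CPM in MIM-treated astrocytes, 18.9 CPM in untreated astrocytes and 4.08 CPM in neural stem cells. Ifit3b had 3.61, 13.3 and 0.20 CPM. Ifit3 and Ifit3b are near-identical neighbours on chromosome 19, so the split of UMIs between them is uncertain.

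Rsad2 and Cmpk2 are neighbours on chromosome 12. Rsad2 (viperin) makes a nucleotide that ends viral RNA chains, and Cmpk2 is a kinase that supplies its substrate. Rsad2 had 101 UMIs in MIM-treated astrocytes, 123 in untreated astrocytes and 20 in neural stem cells, which is 1.98, 2.43 and 1.36 CPM. The ratio after MIM was 81.6% with an interval that includes equality (62.1 to 107), and its log2 ratio of −0.20 turned to 0.03 under another scaling of the libraries. Cmpk2 had 1.22, 3.34 and 0.61 CPM, and its log2 ratio of −0.97 after MIM ranged over −1.05 to −0.83 with the scaling, so that it lay on either side of the 2-fold limit.

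The Oas proteins make a short oligoadenylate that turns on RNA decay, and the Oasl proteins are their relatives. Mx1 belongs to the Mx GTPases, a family with members that trap viral particles. Most of the Oas, Oasl and Mx members were near the limit of detection. Oasl2 had 0.35 CPM in MIM-treated astrocytes, 10.1 CPM in untreated astrocytes and 1 UMI in neural stem cells. Oas1a, Oas2, Oasl1 and Mx1 had 0 to 2 UMIs in MIM-treated astrocytes, 2 to 16 in untreated astrocytes and 0 in neural stem cells, too few to be measured. A count of 0 allows up to 0.059 CPM in the MIM-treated library and 0.20 CPM in neural stem cells. Zbp1, a sensor of left-handed nucleic acid, had 1, 11 and 1 UMIs.

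The helicases Ddx58 (RIG-I), Ifih1 (MDA5) and Dhx58 (LGP2) recognise viral RNA in the cytoplasm. Of these Dhx58 was neither higher nor lower after MIM, but by the rule it could not have been called lower. Its untreated level was under 1 CPM, and 1 CPM is added to each level before the ratio. Ddx58 had 3.46 CPM in MIM-treated astrocytes, 10.3 CPM in untreated astrocytes and 3.06 CPM in neural stem cells. Ifih1 had 0.55, 3.62 and 0.14 CPM, and Dhx58 0.53, 0.87 and 0.34 CPM. The Dhx58 ratio after MIM, 61.0%, rests on 27 against 44 UMIs and its interval reaches equality (36.3 to 101).

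Irf7, the factor that amplifies interferon production, separated most among the transcription factors. It had 0.73 CPM in MIM-treated astrocytes, 17.8 CPM in untreated astrocytes and 0.20 CPM in neural stem cells, so that the treated cells were at 4.09% of untreated (2.86 to 5.68). Irf9 and Stat2, partners in ISGF3, had 1.73 and 2.67 CPM in MIM-treated astrocytes, 11.7 and 11.3 CPM in untreated astrocytes, and 1.36 and 2.79 CPM in neural stem cells. For both factors the interval of the ratio of treated cells to neural stem cells included 1, and its sign turned with the scaling for Stat2, as it did for Ddx58. Irf1, a factor induced early by interferon gamma, had 2.00, 4.76 and 0.48 CPM, and its log2 ratio of −0.94 after MIM crossed the 2-fold limit when Malat1 was left out of the totals.

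The membrane proteins held most of the UMIs. Ifitm2 and Ifitm3 stop viruses from fusing with endosomes, and Bst2 (tetherin) holds budding virus at the cell surface. Ifitm2 stood at 96.9 CPM in MIM-treated astrocytes, 445 CPM in untreated astrocytes and 35.3 CPM in neural stem cells. Ifitm3 stood at 63.4 CPM (61.3 to 65.7), 195 CPM (191 to 199) and 1.97 CPM (1.32 to 2.84). Ifitm3 thus kept 32.6% of its untreated level and was 32.1-fold above neural stem cells (22.3 to 48.1), while Ifitm2 kept 21.7% and was 2.75-fold above (2.51 to 3.01). Ifitm2 and Ifitm3 are close paralogs, so reads may be split wrongly between them, and Ifitm2 also overlaps Gm45717 on the same strand. Bst2 had 3.56, 29.0 and 0.61 CPM.

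The Gbp and Irg families are GTPases that attack the vacuoles of intracellular parasites and bacteria and respond mainly to interferon gamma. All 6 were lower after MIM. Igtp and Irgm1 had 1.14 and 3.73 CPM in MIM-treated astrocytes, 8.87 and 10.3 CPM in untreated astrocytes, and 0.20 and 0.89 CPM in neural stem cells. Iigp1 had 2 UMIs in MIM-treated astrocytes, 309 in untreated astrocytes and 0 in neural stem cells. Gbp2 had 0.22, 4.31 and 0 CPM, while Gbp3 and Gbp7 had 1.12 and 4.66 CPM in MIM-treated astrocytes, 5.57 and 13.6 CPM in untreated astrocytes, and 22 UMIs and 3.61 CPM in neural stem cells. Gbp genes share sequence, and Igtp overlaps Irgm2 on the same strand, so these values are uncertain to that extent.

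Of the remaining members, Ifi27, an interferon-induced membrane protein, had 22.8 CPM in MIM-treated astrocytes, 242 CPM in untreated astrocytes and 3.13 CPM in neural stem cells. Ifi35, an interferon-induced leucine zipper protein, had 8.15 CPM in MIM-treated astrocytes, 33.5 CPM in untreated astrocytes and 0 UMIs in neural stem cells. Its MIM-treated level was 39.9-fold above the floor of 3 counts set for neural stem cells, and the interval of that ratio began at 32.3-fold. Xaf1, Rtp4, Lgals3bp, Parp14, Ifi44 and Trim30a ranged over 0.12 to 1.93 CPM in MIM-treated astrocytes, 2.29 to 19.2 CPM in untreated astrocytes and 0 to 0.61 CPM in neural stem cells. All 8 were lower after MIM.

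A member was described as persisting when its level in MIM-treated astrocytes was at least 50% of the untreated one. By that rule Rsad2 and Dhx58 persisted, out of 33 measured members, both at low counts and with intervals that reach equality. They were also the 2 measured members not called higher in untreated astrocytes than in neural stem cells. Their ratios there were 1.79-fold (1.11 to 3.03) for Rsad2 and 2.55-fold (1.02 to 8.26) for Dhx58. Dhx58, under 1 CPM in untreated astrocytes, could not have been called higher with 1 CPM added. The median member kept 14.8% of its level, 10 kept at least 25% and 11 kept under 10%. Among those under 10%, Ifit1, Oasl2, Ifi44, Gbp2 and Iigp1 were measured only through their counts in untreated astrocytes, so the filter shapes the low end. The next after Rsad2 and Dhx58 were Irf1 at 42.1% (33.04 to 53.2), Cmpk2 at 36.5% (26.8 to 49.1), Irgm1 at 36.1% (30.4 to 42.7) and Gbp7 at 34.2% (29.4 to 39.7). Isg15 kept 8.46% (7.55 to 9.45) and Ifi27 9.40% (8.84 to 9.98).

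Set against neural stem cells, a high percentage kept and a high level were not the same thing. The interval of the ratio of MIM-treated astrocytes to neural stem cells lay above 1 for 17 of 27 measured members and below 1 for 0. The other 10 were Rsad2 (1.46-fold, 0.90 to 2.49), Dhx58 (1.56-fold, 0.59 to 5.18), Cmpk2, Gbp7 (1.29-fold, 0.95 to 1.77), Ddx58 (1.13-fold, 0.81 to 1.60), Ifit2 (1.32-fold, 0.99 to 1.77), Stat2, Gbp3, Irf9 and Rtp4. Both members that persisted were thus among those not told apart from neural stem cells. The members furthest above neural stem cells were Ifi35, Ifitm3, Ifit3b (17.7-fold, 5.96 to 86.6) and Isg15, followed by Ifit3 at 8.43-fold (4.52 to 17.8). Irf1 and Xaf1, counted among the 12 higher members, lay on either side of the 2-fold limit with the scaling.

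**Figure D2:**
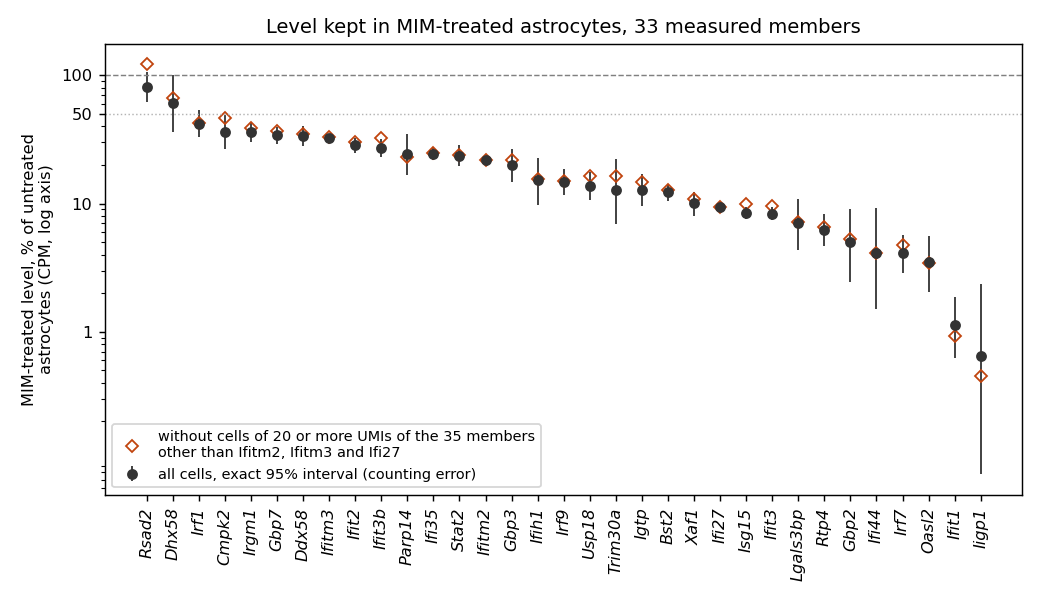
Level of each of the 33 measured members in MIM-treated astrocytes as a percentage of untreated astrocytes, on a log axis, from all cells (filled, with exact 95% interval) and without the cells that held 20 or more UMIs of the 35 members other than Ifitm2, Ifitm3 and Ifi27 (open diamonds). Dashed and dotted lines mark 100% and 50%. Without those cells Rsad2 moves to 122%.

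The member UMIs were spread over cells in different ways. Cells were thinned to 1000 UMIs each for this, which left out 973 MIM-treated cells, 351 untreated astrocytes and 1457 neural stem cells that were shallower. After thinning, 18.5% of MIM-treated cells had a member UMI (17.9 to 19.2, exact binomial), as did 65.7% of untreated astrocytes (64.7 to 66.6) and 5.93% of neural stem cells (5.41 to 6.48). Without thinning the shares were 43.7%, 94.999% and 9.09%. No cell class in these libraries is known to lack the members, so no background share from free RNA could be set beside these values. At least 3 different members were seen in 0.12%, 8.06% and 0.026% of thinned cells.

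**Figure D3:**
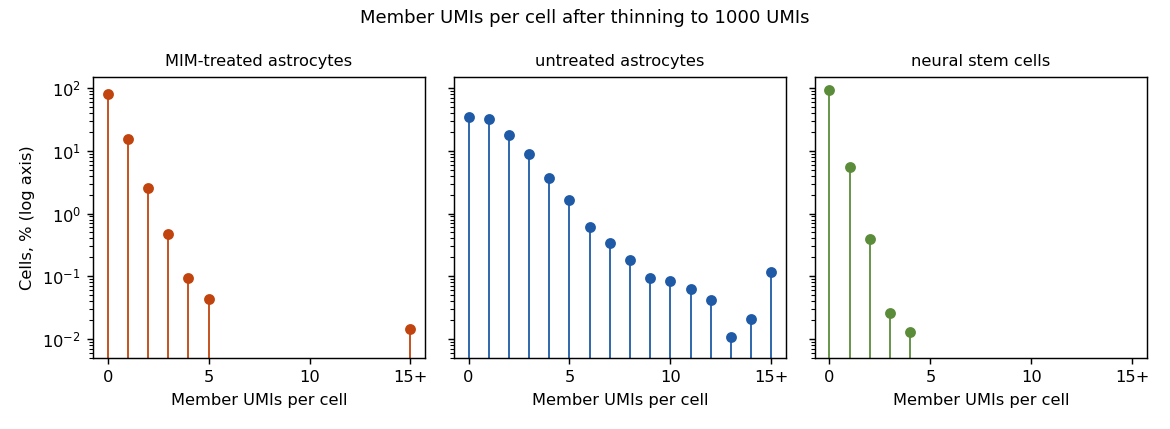
Share of cells by the number of member UMIs per cell after thinning every cell to 1000 UMIs, on a log axis, in MIM-treated astrocytes, untreated astrocytes and neural stem cells; the last position holds 15 or more. Untreated astrocytes reach every number, while the MIM-treated library has 2 cells at 15 or more and otherwise none above 5.

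In untreated astrocytes most cells held a few member UMIs and a small number held many. For the 35 members other than Ifitm2, Ifitm3 and Ifi27, counted without thinning, 3 of 14964 MIM-treated cells (0.020%, 0.0041 to 0.059) held at least 20 UMIs, and these cells carried 3.49% of the UMIs. In untreated astrocytes 94 of 9818 cells did (0.96%, 0.77 to 1.17), with 16.2% of the UMIs, and in neural stem cells 0 of 9145 (upper limit 0.0403%). The same limit of 20 UMIs is harder to reach in shallow cells, and the median cell held 3156 UMIs in MIM-treated astrocytes, 5089 in untreated astrocytes and 1379 in neural stem cells. The limit was chosen after the values were seen. The richest untreated astrocyte held 218 UMIs of 24 of these members among 6551 in all, with 72 of Isg15, 24 of Ifit3, 14 of Ifit1 and 12 of Iigp1. The median depth of the 94 cells was 5861 UMIs, against 5089 for the library.

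The 3 MIM-treated cells stood far apart from the rest of their library in these UMIs. They held 55, 41 and 21 UMIs of these members, from totals of 2883, 2828 and 4357 UMIs, and the next cell held 6. In the first, 38 were Isg15 and 8 Ifit3, in the second 13 were Isg15, 11 Ifit3, 5 Ifit1 and 3 Irf7, and in the last 12 were Isg15. None had a UMI of Gfap, Aqp4 or a microglia marker, and they held 34, 17 and 57 UMIs of Fabp7, a fatty acid-binding protein of neural progenitors. These traits were common in their library: 92.0% of its cells had no UMI of Gfap or Aqp4 and 99.8% none of a microglia marker. Fabp7 had 510888 UMIs over its 14964 cells. Each also held at most 1 UMI of division genes.

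Leaving these high cells out of all 3 libraries changed single members more than the set. Isg15 then stood at 5.48 CPM in MIM-treated astrocytes and 55.1 CPM in untreated astrocytes, and Ifit1 at 0.18 and 19.1 CPM. The 3 MIM-treated cells had held 18.4% of the Isg15 UMIs and 40.0% of the Ifit1 UMIs of their library, and the 94 untreated astrocytes 31.4% and 28.0% of theirs. Rsad2 stood at 1.95 CPM in MIM-treated astrocytes and 1.60 CPM in untreated astrocytes without the high cells, 122% in place of 81.6%, so its direction turned. The cells were chosen by member UMIs, Rsad2 among them, and far more were untreated astrocytes. Leaving them out lowers the untreated level by construction, so the turn is in part built in. The counts of 29 lower members and of 31 and 12 higher ones were the same without these cells.

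In untreated astrocytes cells with an Isg15 UMI more often had one of several other members, though not of Ifitm2. Among 514 thinned cells with an Isg15 UMI, 17.5% also had one of Ifit3, against 4.85% of cells without Isg15. The same shares were 10.7% and 1.69% for Ifit1, 6.03% and 1.14% for Irf7, and 1.75% and 0.19% for Rsad2. For Bst2 they were 5.64% and 2.65%, for Ifitm2 31.9% and 32.2%, and for Ifitm3 16.3% and 12.4%. In MIM-treated astrocytes 3 of 77 cells with an Isg15 UMI had one of Ifit3 (3.90%, against 0.54% of the others), which is too few cells for the pattern to be read.

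**Figure D4:**
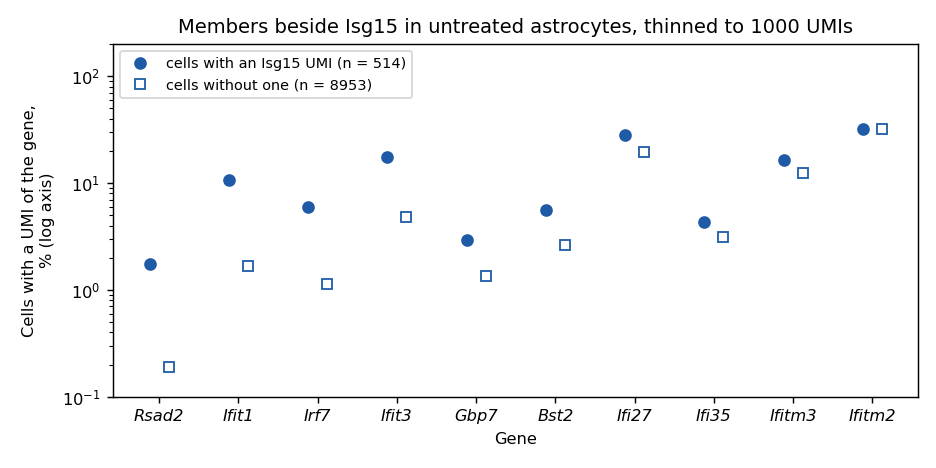
Share of untreated astrocytes with a UMI of each named member, on a log axis, among cells with an Isg15 UMI (filled, 514 cells) and without one (open, all other cells), after thinning to 1000 UMIs. The gap is widest for Rsad2, Ifit1, Irf7 and Ifit3 and absent for Ifitm2.

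The ratio of variance to mean over thinned cells describes each member alone, and a value of 1 is what random sampling alone would give. In untreated astrocytes it was 2.51 for Isg15, 1.76 for Ifit1 and 1.51 for Ifit3, against 1.08 for Ifi27 and 1.06 for Ifi35. Ifitm3 reached 1.81 and Ifitm2 1.22. In MIM-treated astrocytes Isg15 had 4.18, Ifit3 1.4996 and Ifitm3 1.42. The median over the 17 members with enough UMIs there was 0.998. Up to 38 Isg15 UMIs came from 1 cell of that library before thinning.

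Across 9467 thinned untreated astrocytes, the genes outside the members that followed the summed members most closely included Psmb8, B2m, Psmb9, Vcam1, Fth1, H2-K1, 1500015O10Rik, Tmem176a and Spats2l. Pearson correlations ranged from 0.12 for Psmb8 to 0.051 for Spats2l among 4649 genes ranked. All are weak in counts this sparse and describe this library only.

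Within the MIM-treated library the members summed to 250.4 CPM in cells with a UMI of division genes and 246 CPM in cells without one, while single members went both ways. Isg15 had 7.43 CPM in cells with a division UMI and 5.54 CPM in cells without (1.34-fold, 1.06 to 1.70), whereas Ifit3 had 4.47 and 7.83 CPM (0.57-fold, 0.45 to 0.72) and Ifi27 21.2 and 25.4 CPM (0.83-fold, 0.74 to 0.94). Of the 106 Isg15 UMIs in cells without a division UMI, 38 came from 1 cell, which the interval does not allow for. Without Ifitm2, Ifitm3 and Ifi27 the sum was 68.5 CPM in cells with a division UMI and 61.4 CPM in cells without (1.11-fold, 1.04 to 1.20). Cells with a division UMI were deeper, with a median of 3453 against 2783.5 UMIs. Cells with Gfap or Aqp4 had 299.7 CPM (285 to 315), against 243 CPM (238 to 247) in the other treated cells, and they were also deeper, with a median of 4288 against 3052 UMIs. The summed members moved with depth in each library: over 3 equal parts of the cells from shallowest to deepest the sum was 165, 234 and 282 CPM after MIM, 1195, 1335 and 1405 CPM in untreated astrocytes, and 51.6, 61.0 and 71.6 CPM in neural stem cells. Without Ifitm2, Ifitm3 and Ifi27 it was 49.2, 66.0 and 70.5 CPM after MIM, 408, 446 and 485 CPM in untreated astrocytes, and nearly flat at 23.3, 23.2 and 25.03 CPM in neural stem cells. The part of depth in the differences between libraries was not tested beyond the thinned shares above.

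Markers of other cell types were checked for their own part. Of 15 microglia and macrophage markers, 9 had no UMI in any library, Cx3cr1, Tyrobp, Ptprc and Itgam among them, and the list summed to 0.71 CPM in MIM-treated astrocytes, 0.93 CPM in untreated astrocytes and 1.23 CPM in neural stem cells. Without the 36, 47 and 18 cells that had such a UMI, 29 members were still lower after MIM. Fibroblast and meningeal markers moved with the members, at 7.70, 312 and 1.16 CPM. Of these 8 markers Col1a2, Col3a1 and Lum had no UMI in any library, Col1a1 had 6, 105 and 14, and Ogn and Omd, proteoglycan genes, gave nearly all the rest. Ependymal markers, 5 genes with Foxj1 and Rarres2 in the lead, had 19.1, 67.1 and 3.27 CPM. The part of the cells behind the last 2 lists in the member levels was not tested.

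The rest of the pathway was described by lists that had been drawn up with earlier results of these data known. Over all measured genes 15.2% were lower and 8.49% higher after MIM, the shares to set beside the counts of these lists. Of 21 interferon ligands 20 had no UMI in any library, and Ifnk had 59, 80 and 56 UMIs in MIM-treated astrocytes, untreated astrocytes and neural stem cells. In the same order this is 1.16, 1.58 and 3.81 CPM, highest in neural stem cells. Of 10 measured receptor and JAK-STAT genes 3 were lower and 0 higher after MIM, among them Ifngr1, which binds interferon gamma, at 33.4, 105 and 27.8 CPM, and Stat3 at 10.2, 25.7 and 27.5 CPM, in MIM-treated astrocytes, untreated astrocytes and neural stem cells. Ifnar1, a receptor chain for type I interferon, had 14.1, 7.53 and 22.9 CPM and was neither higher nor lower after MIM; it was named after its values were seen.

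Of 8 measured negative regulators 2 were lower after MIM. Socs2 and Socs3, which block JAK kinases and cytokine receptors, had 0.92 and 0.69 CPM in MIM-treated astrocytes, 15.8 and 8.89 CPM in untreated astrocytes, and 3.47 and 0.61 CPM in neural stem cells, while Cish had 0.22, 0.95 and 0.89 CPM. Of 11 measured genes of nucleic acid sensing and interferon induction 1 was lower, the adaptor Myd88, at 1.53, 5.38 and 0.82 CPM. Mavs had 2.04, 3.66 and 2.72 CPM, and Tmem173 (STING) 0.69, 0.16 and 0.48 CPM. Of 7 measured NF-kB response genes 2 were lower: Nfkbia at 17.9, 54.6 and 16.1 CPM and Nfkb1 at 3.71, 9.17 and 12.6 CPM, beside Vcam1 at 15.8, 32.2 and 25.5 CPM. None of these lists had a gene higher after MIM, against 8.49% of all measured genes. In lists this short the counts of lower genes are not read apart from the 15.2% over all measured genes.

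Among 39 measured interferon-stimulated genes outside the members, 16 were lower after MIM and 2 higher, against 15.2% and 8.49% of all measured genes. The list's median was −0.91 on the log2 scale, against −0.19 over all measured genes. The chemokines Cxcl10, Ccl2 and Ccl5, which draw immune cells, had 0.29, 0.45 and 0.28 CPM in MIM-treated astrocytes and 19.6, 20.3 and 12.9 CPM in untreated astrocytes, against 0, 1 and 0 UMIs in neural stem cells. The higher ones were Ifi27l2a at 6.34, 0.91 and 0.68 CPM and Ly6e at 5.05, 1.70 and 10.3 CPM, named because the count is small. Of 14 measured MHC class I and immunoproteasome genes 7 were lower and 0 higher, and the median was −1.07. H2-D1, a class I heavy chain, had 21.7, 129.6 and 12.3 CPM, Tapbp, which loads peptide, 5.66, 26.3 and 6.60 CPM, and Psmb8, an immunoproteasome subunit, 6.27 and 26.5 CPM and 0 UMIs.

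**Figure D5:**
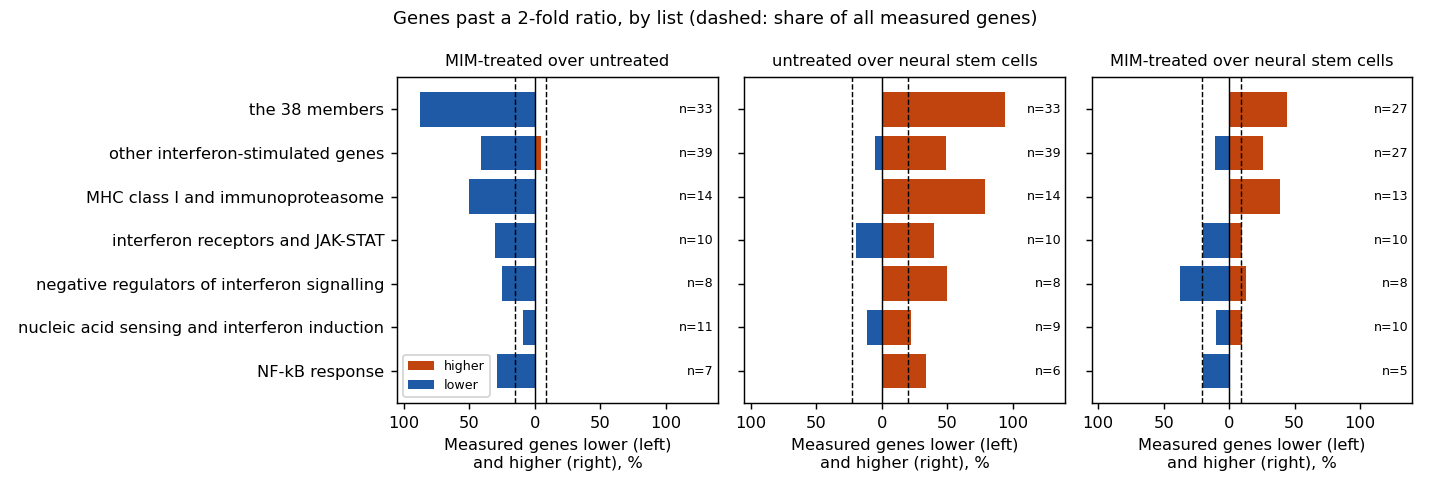
Share of measured genes past a 2-fold ratio, lower to the left and higher to the right, for the members and 6 other lists in the 3 comparisons, with the number measured in each (n). Dashed lines are the shares over all measured genes. Of the members, 29 of 33, 31 of 33 and 12 of 27 lie on one side in the 3 comparisons and 0 on the other.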

How the data were processed

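Droplet single-cell RNA-seq libraries of MIM-treated astrocytes, untreated astrocytes and neural stem cells, 1 per group, were analysed. The deposited values are raw UMI counts per gene and cell; per the labels' protocols the authors aligned reads to mm10 and counted them with Cell Ranger 3.0.2, and the submitters' processing notes also name Seurat 3.1.1 with no role. Cells with at least 200 genes and at most 20% mitochondrial UMIs were kept. No doublet caller was run; an alternative left out the 5% of cells with most UMIs. Counts were summed per library and expressed as CPM, with exact Poisson intervals for levels and exact binomial intervals for ratios and shares (95%). Ratios are log2 after adding 1 CPM, called at 2-fold among genes with at least 20 UMIs over both libraries. A count of 0 was bounded by 3 counts. Cells were thinned to 1000 UMIs (seed 1). With 1 library per group no p-value was computed. Members with at least 20 CPM in any library were given in full, other members by role, and of each other list the 3 measured genes with the largest ratio in size after MIM. The members and lists were chosen with earlier results of these data known. Alternatives covered scaling (edgeR 4.0.16 TMM, RLE), pseudocount, filters, thinning and cells left out. Promoters were from RefSeq, GRCm38.p6, and gene overlaps from GENCODE, which matched 38 of 38 members. Scripts ran in Python 3.11.15 with numpy 2.4.6, scipy 1.17.1 and pandas 2.3.3 and were tested on simulated data. The values of 1 gene of the other lists are not reported here.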

Additional observations from a re-analysis of the deposited data

How the results depend on the processing

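The count of members lower in MIM-treated than in untreated astrocytes stayed at 27 to 31 in 15 of 17 alternatives, and was 11 with a pseudocount of 10 CPM and 5, all that could be measured, with at least 50 CPM in either library. The count higher in untreated astrocytes than in neural stem cells stayed at 26 to 32 in 15 of 17, and was 15 and 5 under the same alternatives. For MIM-treated astrocytes over neural stem cells the count of higher members stayed at 9 to 17 in 14 of 17, and was 3 with a pseudocount of 10 CPM, 7 with at least 200 UMIs and 2 with at least 50 CPM. A larger pseudocount shrinks ratios of low genes and stricter filters measure fewer genes by construction. The counts of 0 in the opposite direction stayed 0 in all 17. Most measured members were under 1 CPM in neural stem cells, so with 1 CPM added they could not be called lower against them. The share of cells with a member UMI moved with depth: thinned to 500 UMIs it was 10.2% of MIM-treated astrocytes, 44.4% of untreated astrocytes and 2.68% of neural stem cells, thinned to 2000 UMIs 34.5%, 85.2% and 12.9%, and without Ifitm2 and Ifitm3 7.70%, 42.9% and 2.56%. The alternative without cells of at least 20 UMIs was chosen after seeing the data. No paired analysis was possible because each group has 1 library. Depth limits members with few UMIs, above all in neural stem cells.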
